A study of Mus musculus with 3 samples.

Results

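Expression of 10 transcription factor genes known from cardiac fibroblasts and from the epicardium, the cell layer on the outer surface of the heart, was followed in cultured mouse cardiac myofibroblasts that were attached to plastic, kept in suspension and attached again. The genes were the T-box factors Tbx18 and Tbx20, the zinc finger factors Gata4, Gata6 and Wt1, the basic helix-loop-helix (bHLH) factors Tcf21, Twist1 and Hand2, and the homeobox factors Prrx1 and Meox1. Their probes were found by mapping the RefSeq transcript name that the array gives each probe, without its version, to a gene symbol. This gave 13 probes for all 10 genes, among 15393 genes measured.

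Per the labels, hearts of male C57BL/6J mice were taken 3 days after the left anterior descending coronary artery had been tied off for good, digested with collagenase and elastase, and plated overnight, and the attached cells without the leukocyte surface protein CD45 were kept as myofibroblasts. The labels give the age of the mice as 8 weeks in the sample fields and as 10 weeks at ligation in the protocol. All 3 states came from such infarcted hearts and no state came from unoperated mice. Adherent cells were grown on plastic plates, non-adherent cells were moved from there to plates that prevent attachment, and re-adherent cells were then put back on plastic, each for a week per the study's methods. Time in culture therefore rose from state to state, and time and state cannot be told apart. Each state had 1 array, hybridised with RNA mixed from hearts of several plates, so there was no replicate to measure biological spread and no test was made. The arrays shared a slide and a scan. The comparisons ask how expression differs between cultures before and after they lose and regain attachment to a stiff surface.

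These factors bind DNA at short recognition sequences and set which genes a cell transcribes. In the embryo, cells of the epicardium make Wt1, Tbx18 and Tcf21, and part of them leave the surface layer, move into the heart wall and become fibroblasts and mural cells of the vessels. Cardiac fibroblasts keep several factors of heart development, among them Gata4, Gata6, Tbx20, Hand2 and Tcf21, beside general factors of mesenchyme such as Twist1 and Prrx1. In injured hearts, fibroblasts that turn into myofibroblasts are known to induce Meox1.

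RefSeq promoters of assembly GRCm38.p6 were used for 6 of the 10 genes, Hand2, Prrx1, Tbx18, Tbx20, Tcf21 and Twist1, while none was used for Gata4, Gata6, Meox1 and Wt1. The 250 bases before the annotated start are shown for the 4 genes that were lowest in suspension relative to adherent cells, 5′ to 3′ along the gene, with motif matches in capitals.
Tbx18, chr9:87731261-87731510, minus strand: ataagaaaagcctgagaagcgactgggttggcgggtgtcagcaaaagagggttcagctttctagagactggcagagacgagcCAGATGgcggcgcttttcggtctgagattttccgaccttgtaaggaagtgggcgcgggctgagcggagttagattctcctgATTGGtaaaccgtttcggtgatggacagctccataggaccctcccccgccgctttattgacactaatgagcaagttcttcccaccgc
Twist1, chr12:33957421-33957670, plus strand: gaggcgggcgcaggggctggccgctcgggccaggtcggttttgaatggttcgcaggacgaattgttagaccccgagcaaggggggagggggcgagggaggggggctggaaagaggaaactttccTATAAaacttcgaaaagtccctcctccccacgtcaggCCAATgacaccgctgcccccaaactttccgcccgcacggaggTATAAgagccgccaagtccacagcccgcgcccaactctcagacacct
Hand2, chr8:57320733-57320982, plus strand: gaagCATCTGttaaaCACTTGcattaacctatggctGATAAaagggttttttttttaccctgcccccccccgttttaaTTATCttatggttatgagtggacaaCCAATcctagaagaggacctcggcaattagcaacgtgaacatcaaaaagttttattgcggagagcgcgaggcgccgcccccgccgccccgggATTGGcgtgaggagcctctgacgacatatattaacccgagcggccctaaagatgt
Tcf21, chr10:22820144-22820393, minus strand: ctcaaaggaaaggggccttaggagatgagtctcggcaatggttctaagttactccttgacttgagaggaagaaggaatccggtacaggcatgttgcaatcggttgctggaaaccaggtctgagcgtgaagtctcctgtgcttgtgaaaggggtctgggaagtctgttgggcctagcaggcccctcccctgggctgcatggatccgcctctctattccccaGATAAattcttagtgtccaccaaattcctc
The motifs searched on both strands were the E-box CANNTG of bHLH factors, the GATA motif GATAA, the T-box motif GGTGTGA, the TEAD (M-CAT) motif CATTCC, the AP-1 motif TGANTCA, the CCAAT box CCAAT, the TATA box TATAA and the CArG box of serum response factor. The E-box reads the same on both strands, and no overlap occurred among the capitals shown here. Hand2 had 2 E-box, 2 GATA and 2 CCAAT matches, Tbx18 had 1 E-box and 1 CCAAT match, Twist1 had 1 CCAAT and 2 TATA matches, and Tcf21 had 1 GATA match. An E-box was found in 2 of the 6 member promoters and in 66.2% of the 32851 promoters of all genes. A GATA motif was found in 3 of the 6, Hand2, Prrx1 and Tcf21, and in 22.6% of all promoters. A CCAAT box was found in 3 of the 6 and in 33.8% of all, a TATA box in 1 and in 22.8%, and a TEAD motif in 1, Prrx1, where it overlapped the GATA match, and in 12.6%. No T-box motif, AP-1 motif or CArG box lay in the 6 windows, and 3.33%, 6.75% and 1.47% of all promoters held them. These matches describe letters in a short window and no binding was measured.

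Every one of the 10 genes cleared background by the scanner's test on each of the 3 arrays and no spot was saturated. All 10 were lower in non-adherent than in adherent cells, 9 of the 10 were higher again on the re-adherent array, and Meox1 alone among them went on falling. RNA came from the whole culture, so fewer cells of a type and less RNA per cell cannot be told apart. Per the study's methods most cells were lost in suspension, which the study ascribes to anoikis, cell death on losing attachment. The re-adherent cultures were started from the cells that remained. The part of this loss in the values was not tested. The non-adherent RNA also held more signal of macrophage genes, with 10 of 11 measured markers over 2-fold higher than in adherent cells. Over all genes this share was 17.2%. Signals below are the processed scanner signals in linear units before scaling. Differences are on the log2 scale after each array was divided by its 75th percentile, which was 651, 697 and 541 units for adherent, non-adherent and re-adherent cells, and values of a gene are listed in this order throughout. The error given with a difference combines the errors that the scanner software assigned to both spots and covers technical error of the spots alone.

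**Figure D1:**
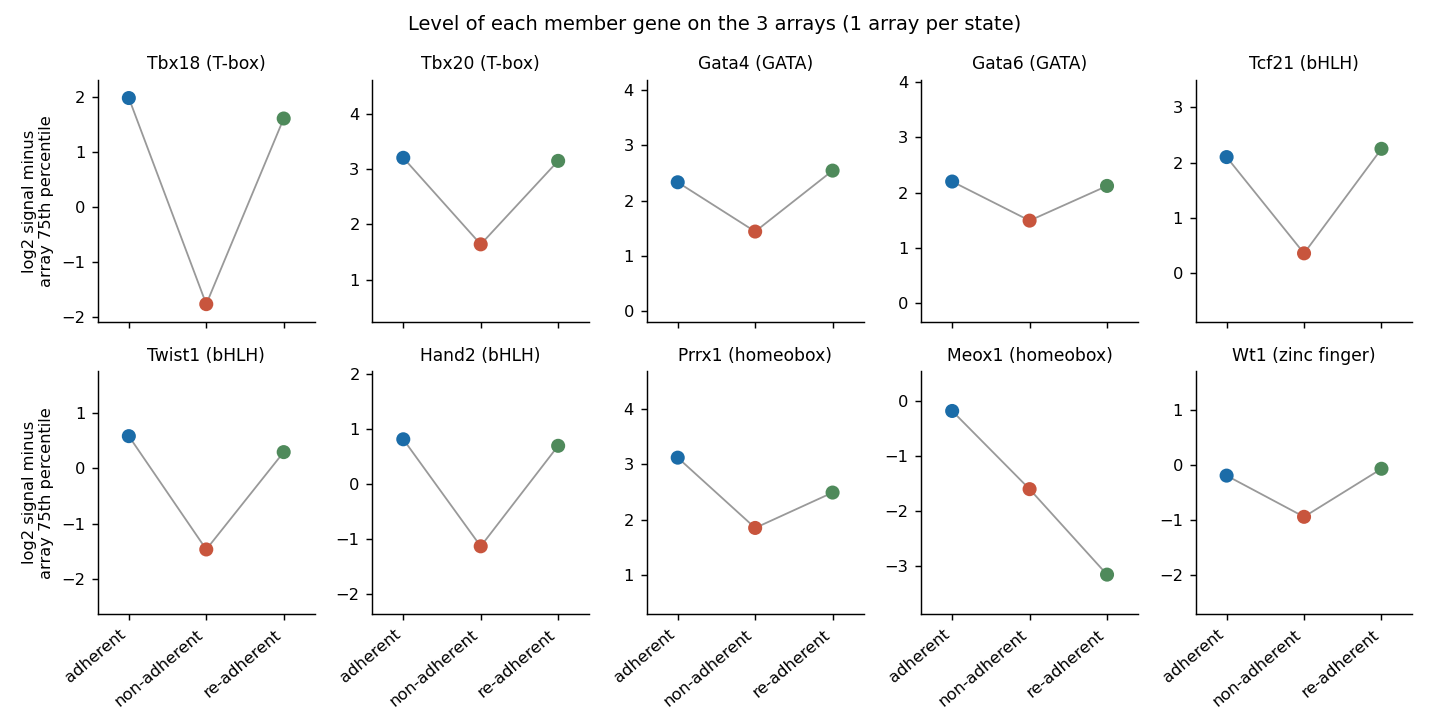
Level of each of the 10 genes in adherent, non-adherent and re-adherent cells, as log2 signal minus the array's 75th percentile, with 1 point per array, no error bar because there were no replicates, and the same span on every vertical axis. The non-adherent point is the lowest in 9 panels, and in the Meox1 panel the re-adherent point is the lowest.

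Among the 10 genes Tbx18 gave the largest drop in suspension. Tbx18, a T-box repressor made in the epicardium, had signals of 2565, 206 and 1649 units in the 3 states. The non-adherent array was thus the low one, and the re-adherent array stood below the adherent one but nearer to it. Tbx18 was 13.3-fold lower in suspension (log2 difference -3.74, error 0.21, n = 1 array per state), and 1.21% of the measured genes had a difference further down. It was 10.3-fold higher on re-adhesion (log2 difference 3.37, error 0.21). Its signal relative to the array percentile then reached 77.3% of the adherent one, a log2 difference of -0.37 with an error of 0.20. It was 64.3% without scaling and 56.0% with spike-in scaling (-0.84), and below the adherent level under every setting.

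Tbx20, a factor of the developing heart muscle and valves that cardiac fibroblasts also make, was read by 3 probes for 3 transcripts. The brightest, for NM_194263, had 6014, 2169 and 4812 units in the 3 states. The probe for NM_020496 had 2026, 484 and 1583 units, and that for NM_001205085 had 1440, 405 and 1569 units. The non-adherent array was lowest for each of them. In suspension they were lower by log2 differences of -1.57, -2.16 and -1.93, and on re-adhesion higher by 1.51, 2.07 and 2.32, so the probe that represents the gene gave the smallest step in both comparisons. Between re-adherent and adherent cells the 3 probes gave -0.06, -0.09 and 0.39 on the log2 scale, with no common direction.

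The GATA factors moved less. Gata4, a zinc finger activator of cardiac genes, had signals of 3275, 1887 and 3154 units in the 3 states. It was 1.86-fold lower in suspension (log2 difference -0.89, error 0.20) and 2.15-fold higher on re-adhesion (1.10, error 0.20), a rise that was under 2-fold without scaling (0.74), with spike-in scaling (0.89) and with the authors' values (0.83). The adherent and re-adherent arrays were close to each other, with the non-adherent one below both. Gata6, its close relative, had signals of 2989, 1958 and 2353 units. It was 1.63-fold lower in suspension (log2 difference -0.71, error 0.20) and 1.55-fold higher on re-adhesion (0.63, error 0.20), the smallest rise among the 9 genes that rose by these values. Neither gene was over 2-fold lower in suspension, and 16.9% and 22.1% of the measured genes lay below Gata4 and Gata6 there.

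Tcf21, the bHLH factor needed for cardiac fibroblasts to form, had signals of 2788, 890 and 2572 units in the 3 states. It was 3.35-fold lower in suspension (log2 difference -1.75, error 0.20) and 3.72-fold higher on re-adhesion (1.89, error 0.20). Twist1, a bHLH factor of mesenchyme that drives cells out of epithelia, had 976, 251 and 664 units, again with the low value in suspension. It was 4.15-fold lower in suspension (-2.05, error 0.20) and 3.40-fold higher on re-adhesion (1.76, error 0.20). Hand2, which acts in the developing heart, limb and sympathetic nerves, had 1143, 319 and 875 units. It was 3.84-fold lower in suspension (-1.94, error 0.20) and 3.54-fold higher on re-adhesion (1.82, error 0.20). All 3 bHLH genes thus had their low point in suspension and were higher after re-adhesion. Twist1 was the only member on a part of the slide where neighbouring spots shifted together by more than 0.5 on the log2 scale: in suspension they were higher by a median of 0.50 relative to adherent cells, against the direction of Twist1 itself. The neighbours of Hand2 were higher there by 0.46, likewise against its direction.

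The homeobox factors parted after suspension. Prrx1, a paired-related factor of limb, skull and cardiac mesenchyme, was read by 2 probes. The brighter one had signals of 5666, 2507 and 3039 units in the 3 states, and the other had 1823, 755 and 1003 units. Both were lowest in suspension and stayed well below the adherent array after re-adhesion. They were lower in suspension by log2 differences of -1.27 and -1.37, and higher on re-adhesion by 0.64 and 0.77. Taking the brighter probe, the rise made up 50.3% of the drop on the log2 scale, and 23.6% without scaling. The re-adherent level was 64.5% of the adherent one (log2 difference -0.63, error 0.20), and with spike-in scaling it was 46.7% (-1.10), past the 2-fold limit.

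Meox1, a homeobox factor of somites that is also known from activated fibroblasts, had signals of 573, 230 and 61.0 units in the 3 states. The re-adherent signal was still above the lowest signal called well above background on that array, which was 18.3 units. Meox1 was 2.67-fold lower in suspension (log2 difference -1.42, error 0.21), a further 2.93-fold lower on re-adhesion (-1.55, error 0.22), and 7.82-fold lower in re-adherent than in adherent cells (-2.97, error 0.22). That last value was -2.26 with normexp background correction and quantile normalization, 4.79-fold, and -3.43 with spike-in scaling. In the scaling used here 0.26% of the measured genes lay below it in this comparison. Its relative Meox2 had the same order of arrays, with 390, 213 and 62.3 units, and log2 differences of -0.97 and -1.41 in the 2 steps.

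Wt1, the zinc finger factor that marks the epicardium, had signals of 569, 363 and 516 units in the 3 states. It was 1.68-fold lower in suspension (log2 difference -0.75, error 0.20) and 1.83-fold higher on re-adhesion (0.87, error 0.20). With Gata4 and Gata6 it formed the group of 3 genes that stayed within 2-fold of the adherent level in suspension, although Gata4 read -1.14 with spike-in scaling.

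Set side by side, 7 of the 10 genes were over 2-fold lower in suspension, where 14.7% of all measured genes were, and none was over 2-fold higher, where 17.2% were. The median of the 10 log2 differences was -1.49, with a range from -3.74 to -0.71, beside a median of -0.07 over all genes. On re-adhesion 6 of the 10 were over 2-fold higher, 5 without scaling, with spike-in scaling and with the authors' values, against 15.6% of all genes, and 1, Meox1, was over 2-fold lower against 16.3%. The median of the 10 was 1.31, with a range from -1.55 to 3.37, beside 0.08 over all genes. The 2 steps share the non-adherent array, so a gene that read low on that array alone would fall and rise in the same measure. As scaled here each of the 10 differences was larger than 3 times its software error in both steps, while without scaling the second step of Gata6 and of Prrx1 was 1.30 and 1.36 times the error. Ordered by the first step, Tbx18 stood apart from the next gene, Twist1, by 1.68 on the log2 scale, 5.80 times the error of that gap. From Twist1 through Hand2, Tcf21, Tbx20, Meox1 and Prrx1 neighbouring genes were 0.11 to 0.20 apart, under the error of the gap in every pair, and the same held from Gata4 through Wt1 to Gata6. Prrx1 and Gata4 were 0.38 apart, 1.32 times the error. In the second step Meox1 lay 2.18 below the next gene, Gata6, and Tbx18 lay 1.47 above Tcf21, at 7.20 and 5.08 times the error, and of the other pairs Gata4 and Tbx20 alone differed by more than the error of their gap, at 1.42 times.

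**Figure D2:**
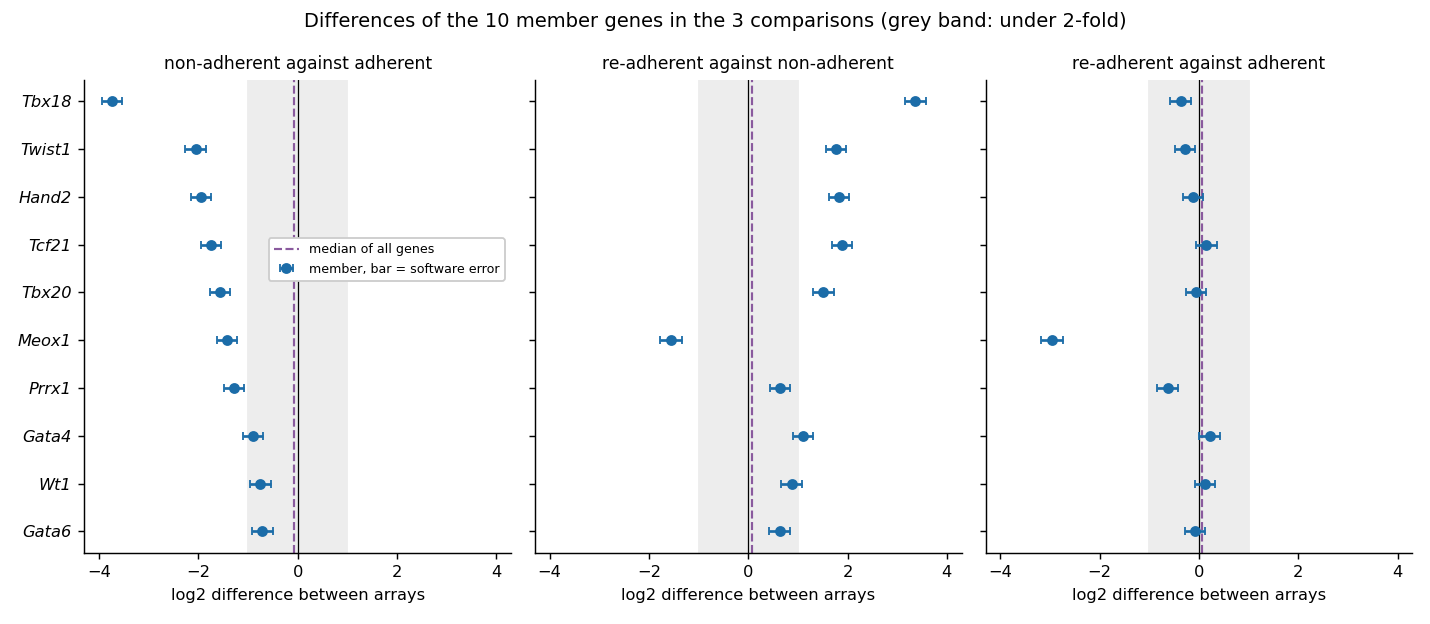
Log2 differences of the 10 genes, ordered by their value in suspension, for the 3 comparisons named above the panels, with bars for the software error, a dashed line for the median of all measured genes and a grey band for differences under 2-fold. All 10 points lie left of 0 in the first panel, 9 lie right of 0 in the second, and in the third all but Meox1 lie inside the band.

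Between re-adherent and adherent cells the sign of several genes depended on the scaling. As scaled here 7 of the 10 genes were lower and 3 higher, the median log2 difference was -0.10 beside 0.06 over all genes, and 5 of the 10 differences did not exceed their software error. 1 gene, Meox1, was over 2-fold lower, where 4.90% of all genes were, and 0 were over 2-fold higher, where 4.84% were. Of the rest, Prrx1 alone differed by more than 2 times its error. All 10 were lower without scaling, with a median of -0.36 beside -0.20 over all genes, and with spike-in scaling, with -0.56 beside -0.40 and with Prrx1 as a second gene over 2-fold lower. Tcf21, Wt1 and Gata4 were higher by 0.15, 0.12 and 0.21 as scaled here, and with spike-in scaling they read -0.32, -0.34 and -0.25. Tcf21, Wt1 and Gata4 thus had no settled direction in this comparison, and neither had Tbx20, which read 0.08 when its probes were averaged.

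The share of the first step that was regained in the second ranged widely and moved with the scaling. On the log2 scale, as scaled here, it was 124% for Gata4, 117% for Wt1, 109% for Tcf21, 96.5% for Tbx20, 93.9% for Hand2, 90.1% for Tbx18, 88.8% for Gata6 and 85.9% for Twist1. Prrx1, with 50.3%, and Meox1, which regained nothing, stood below these 8 genes. Over the scalings Gata6 ranged from 42.9% to 88.8%, Wt1 from 65.6% to 118%, Gata4 from 77.7% to 124% and Prrx1 from 23.6% to 50.3%. Meox1 and then Prrx1 had the lowest share under each of them, and without scaling and with spike-in scaling Gata6 came next with 43.4% and 42.9%.

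**Figure D3:**
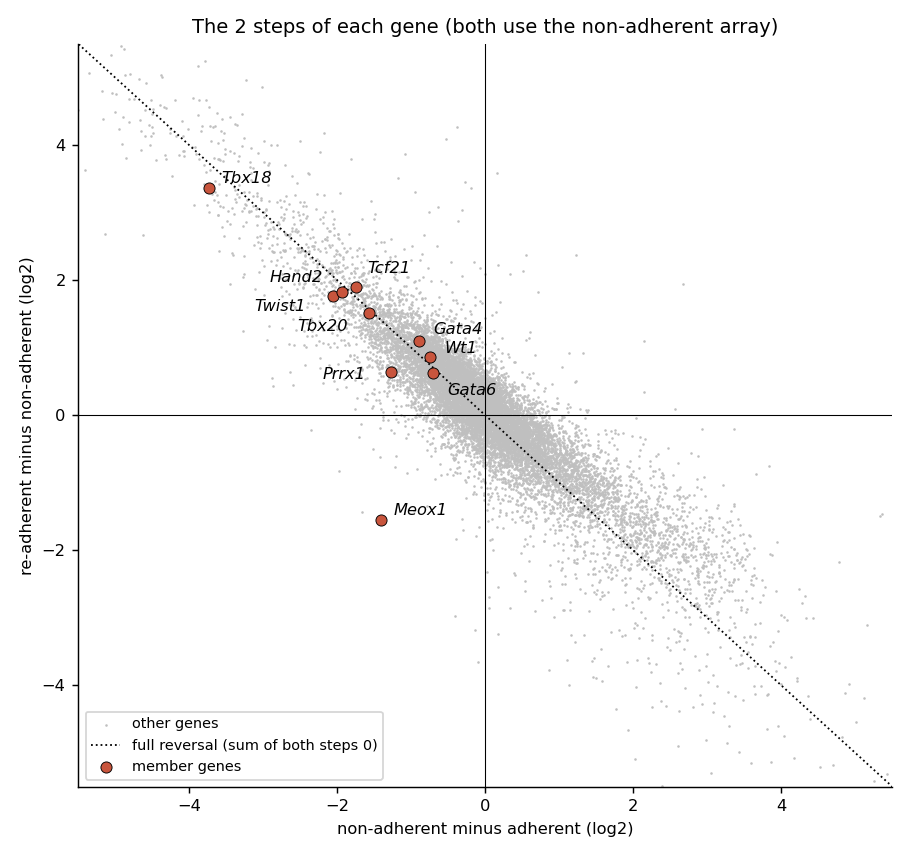
Log2 difference of each gene on going into suspension (horizontal) and on re-adhesion (vertical), for genes well above background on all 3 arrays, with the 10 genes in red, 13465 others in grey, 35 of which lie outside the axes, and a dotted line where the second step undoes the first. With the scaling used here 8 of the 10 genes lie near that line and Prrx1 lies below it, a placing that moves with the scaling for Gata6 above all, and Meox1 lies in the lower left corner, away from most other genes.

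Likeness to other genes was measured as the distance in the plane of the 2 steps, on the log2 scale, over the genes well above background on all 3 arrays. It is a description over 3 arrays, and nearness in 2 values is easily reached. Nearest to Tbx18 was Tead1, which encodes a DNA-binding partner of the cofactors YAP and TAZ, with steps of -3.72 and 3.34, followed by Tmem200a and Hs6st2, and 16 genes lay within 0.3 of Tbx18. Meox1 had 1 gene within 0.3, Fbn2, which encodes the microfibril protein fibrillin-2, with steps of -1.67 and -1.43, and next came Meox2 at a distance of 0.47 and Slpi at 0.67. Around Gata6, Wt1 and Gata4 the plane was crowded, with 1240, 1124 and 754 genes within 0.3. Between these extremes lay Tbx20 with 254 such genes, nearest Afap1l2, Slc2a10 and Lamb1, Prrx1 with 208, nearest Lypd2, Mbnl3 and Abca5, Tcf21 with 146, nearest Zfp612, Lrrc8c and Fam114a1, Hand2 with 124, nearest Ghr, Mcc and Rps4l, and Twist1 with 105, nearest 2900026A02Rik, Magi3 and Ptprf. For Gata4 the nearest were Ercc5, Cnih1 and Esd, for Gata6 Clpsl2, Uap1 and Cep63, and for Wt1 Exosc6, Katnal1 and Wasl. Among the 10 genes themselves, Hand2 lay within 0.3 of both Twist1 and Tcf21, and Wt1 within 0.3 of both Gata4 and Gata6.

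Relatives from the same families did not all move as the 10 genes did. Of 15 relatives listed, 13 were measured. The other 2, Gata1 and Hand1, did not clear background anywhere. In suspension 3 of the 13 lay more than 2-fold down and 2 more than 2-fold up, with a median log2 difference of -0.54. Over the scalings 2 to 5 were down and 0 to 3 up, and the shares among all genes were 14.7% and 17.2%. On re-adhesion 4 were up and 3 down by more than 2-fold, 3 to 4 and 0 to 4 over the scalings, beside 15.6% and 16.3% of all genes, with a median of 0.39. Gata3, a GATA factor best known from T cells, had 605, 28.6 and 429 units in the 3 states, and log2 differences of -4.50 and 4.27, which shrank to -2.71 and 2.51 at the least over the scalings. Its order against Tbx18 thus depended on the setting. Gata2, known from blood and vessel cells, had 434, 77.6 and 305 units and differences of -2.58 and 2.34, at the least -1.80 and 1.69 over the scalings. Gata5 had 988, 1156 and 1177 units and a first difference of 0.13, whose sign changed with the scaling. So among the GATA genes Gata2 and Gata3 were lower in suspension by more than Gata4 and Gata6.

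Of the T-box relatives, Tbx3 had log2 differences of -1.11 and 1.08 in the 2 steps, while Tbx2 (0.41 and -0.61) and Tbx5 (0.99 and -0.69), a factor of the atria and the forelimb, ran the other way at low signals. Tbx1 cleared background in suspension alone, with 29.2 units, at least 1.63-fold above the adherent and 1.24-fold above the re-adherent bound. Its log2 differences in the 2 steps were 0.57 and -0.59 at the least over the scalings. Among bHLH relatives, Twist2, with 2372, 1429 and 2071 units, had -0.83 and 0.90, the tendon factor Scx had -0.64 and 1.49, and Msc had 0.14, a value whose sign changed with the scaling, and 0.55. Tcf15 had 17.3 and 72.8 units on the first 2 arrays, a difference of 1.97, and did not clear background after re-adhesion, at least 3.08-fold below the non-adherent signal. Over the scalings its log2 differences in the 2 steps shrank to 0.68 and -0.85. Prrx2 had 2780, 2046 and 1151 units, lower in both steps by -0.54 and -0.47, where Prrx1 was lower and then higher.

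Partners and cofactors of these factors were measured for all 12 listed genes. In suspension 3 were down by more than 2-fold and 1 was up by as much, with 2 to 5 down over the scalings and a median log2 difference of -0.72. The shares among all genes were 14.7% and 17.2%. On re-adhesion 3 were over 2-fold higher and 2 over 2-fold lower, with a median of 0.62, beside 15.6% and 16.3% of all genes. Zfpm2, also called FOG2, the cofactor that binds GATA4, had 1479, 527 and 1109 units and differences of -1.59 and 1.44, while Zfpm1 had -0.24 and 0.58. Of the E proteins that pair with bHLH factors, Tcf3 and Tcf12 had -0.78 and 0.66, and -0.61 and 0.41, and Tcf4 had 0.08, with a sign that changed with the scaling, and -0.37. Of the Id proteins, which keep E proteins from binding DNA, Id4 had 617, 82.9 and 222 units, with differences of -2.99, at the least -2.14 over the scalings, and 1.78. Id1 (-0.72 and 0.55) and Id3 (-0.88 and 0.74) were lower and then higher, and Id2 (0.81 and -1.17) was higher and then lower. Basp1, a cofactor of WT1, had -0.72 and 0.95. Mef2c, an activator of muscle genes, ran against most of this list with 52.0, 205 and 62.3 units and differences of 1.88 and -1.35, at the least 1.16 and -0.88 over the scalings. Nkx2-5, the heart muscle homeobox factor that binds GATA4, was not well above background in suspension. With its own dim signal there it was 2.97-fold below the adherent and 5.29-fold below the re-adherent array. Over the scalings its log2 differences in the 2 steps shrank to -0.40 and 0.69.

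Other transcription factors of mesenchyme were mostly lower in suspension. Of 13 measured, 12 were lower and 9 over 2-fold lower, 6 to 11 over the scalings and beside 14.7% of all genes, with a median log2 difference of -1.17, and on re-adhesion 11 were higher, 4 of them over 2-fold, with a median of 0.66. Without scaling 9 of the 13 were higher in that second step. Over all genes 15.6% were over 2-fold higher there. Osr1, a zinc finger factor of embryonic mesenchyme, gave the largest values of the list, with 2185, 82.8 and 1649 units and differences of -4.82 and 4.68, at the least -3.81 and 3.58 over the scalings. Sox9, the cartilage factor, had 4329, 1439 and 3793 units with -1.69 and 1.76, and the bone factor Runx2 had 126, 31.3 and 40.6 units with -2.11, which was -0.87 at the least over the scalings and then under 2-fold, and 0.74. Among 9 measured genes reported as targets of these factors, 7 were lower in suspension, 5 of them over 2-fold, beside 14.7% of all genes. Myh6 and Nppa were higher there by 0.96 and 0.99, with 0 to 2 of them over 2-fold higher over the scalings. On re-adhesion 6 were higher, 4 of them over 2-fold and 3 to 4 over the scalings, beside 15.6% of all genes. The remaining 3 were lower, 1 of them over 2-fold, beside 16.3%. Tnc, encoding the matrix protein tenascin C, had 1755, 166 and 948 units and differences of -3.50 and 2.87, at the least -2.88 and 2.26 over the scalings. Nppb, a natriuretic peptide, had -2.57 and 1.60, at the least -1.39 and 0.80, and Cdkn2a, a cell cycle inhibitor, had -1.51 and 2.91. Periostin (Postn) was nearly level, with -0.12 and -0.09. Of 3 antisense neighbours listed, of Gata6, Hand2 and Wt1, 1 had a probe and none was well above background on any array.

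Markers of other cell types moved between the same arrays. The 11 measured macrophage markers were all well above background on all 3 arrays. In suspension 10 were over 2-fold higher, beside 17.2% of all genes, with a median log2 difference of 2.67. On re-adhesion 9 were over 2-fold lower, beside 16.3% of all genes, with a median of -1.58. Their summed signal, in multiples of each array's 75th percentile, was 167, 947 and 329 in the 3 states, beside 40.8, 15.5 and 36.4 for the 10 transcription factors. The complement genes C1qa and C1qb had 8359, 89527 and 26043 units and 7035, 81833 and 20738 units, the mannose receptor gene Mrc1 had 3196, 40930 and 3276, and Ptprc, which encodes CD45 itself, had 355, 2441 and 532. Itgam ran the other way in both steps, with 25376, 15209.5 and 18947 units and log2 differences of -0.84 and 0.68. Cx3cr1, with 416, 2837 and 8492 units, rose in both steps. The non-adherent array was thus higher than the adherent one for 10 of the 11 macrophage markers, where it was lower for the 10 factors. The part of this in the values of the 10 factors was not tested.

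Endothelial markers were also high in suspension. Of 10 measured, 6 were over 2-fold higher there, 4 with spike-in scaling, beside 17.2% of all genes, with a median log2 difference of 1.18. On re-adhesion 8 were over 2-fold lower, beside 16.3%, and Emcn and Tie1 were no longer well above background. Between re-adherent and adherent cells the median was -1.77 and 6 were over 2-fold lower, 4 to 7 over the scalings, beside 4.90%. Summed signals were 24.4, 38.1 and 22.9. They lean on Kdr, the brightest of the 10 in adherent and re-adherent cells, which ran the other way with 9446, 7939 and 10320.5 units. Cdh5, the cadherin of vessel lining cells, had 289, 2381 and 26.6 units, Egfl7 had 4502, 10642 and 1221, and Esam had 220, 1118 and 43.6. Cardiomyocyte markers, 7 measured of 10, summed to 1.32, 2.11 and 3.47, with a median of 0.96 in the first step. In the second step their median was -0.78, with 4 of the 7 lower and 3 higher. Tnnt2 was by far the brightest of the 7 on each array, so the sums mostly follow it. Myh6 had 36.4, 75.6 and 26.9 units, Myl2 had 21.7, 50.6 and 44.1, and Tnnt2 had 593, 955 and 1646. Tnni3 did not clear background in adherent and re-adherent cells, and Actc1 did not in re-adherent cells. Pericyte and smooth muscle markers, 9 measured, summed to 19.1, 15.3 and 14.3, with a first median of -0.20. Pdgfrb was the brightest of the 9 on each array, with 9706, 7686 and 6511 units, so these sums mostly follow it. Cspg4 had 706, 182 and 218 units, Des had 149, 35.7 and 168, and Notch3 had 1418, 2327 and 680. Myh11 had 213 units in adherent cells, at least 16.3-fold above the non-adherent array as scaled here, where it did not clear background. Its log2 difference in that step was -2.12 at the least over the scalings. Rgs5 did not clear background in re-adherent cells. Abcc9 and Kcnj8 cleared background in suspension alone, at least 5.62-fold and 4.10-fold above the adherent array as scaled here. Their log2 differences in that step were 1.04 and 0.93 at the least over the scalings. Schwann and sympathetic nerve markers, 5 measured of 7, summed to 1.11, 1.49 and 1.36, with a first median of 0.32. S100b had 74.8, 207 and 166 units, and Sox10 had 83.4, 93.0 and 91.9. How far any of these went into the values of the 10 factors was not tested.

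Fibroblast markers set the labelled cell type beside these values. All 11 were well above background on all 3 arrays, and they summed to 2084, 1059 and 1930 times the array percentile. In suspension 4 were down by more than 2-fold, 2 to 5 over the scalings, and 2 were up by as much, with a median log2 difference of -0.70. The shares among all genes were 14.7% and 17.2%. On re-adhesion 6 were higher, 4 of them over 2-fold, and 5 lower, 2 of them over 2-fold, with a median of 0.44. Over all genes 15.6% and 16.3% were over 2-fold higher and lower. With quantile normalization 4 were higher and 7 lower, with a median of -0.23. Acta2, the smooth muscle actin that marks myofibroblasts, had 435300, 4690 and 345278 units, and Thy1 had 40445, 3823 and 28618. The sums lean on Acta2, the brightest of the 11 in adherent and re-adherent cells. Collagen Col1a2 had -1.01, from -1.25 to -0.48 over the scalings, and the growth factor receptor gene Pdgfra -0.55 in the first step. As scaled here, 7 of the 10 transcription factors were lower there by more than Col1a2. Acta2 (-6.64) was lower by more than all 10, and Thy1 (-3.50) by more than all but Tbx18. The order of Thy1 and Tbx18 depended on the setting: Tbx18 read -3.32 with normexp, and Thy1 was -3.40 at the least over the scalings. Lum, a small matrix proteoglycan, ran the other way with 3275, 41309 and 377 units. Dcn was also higher in suspension, by 1.69, and Col3a1 by 0.19, a value whose sign changed with the scaling.

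Epicardial and mesothelial markers, 11 measured of 12, were set beside Wt1 and Tbx18 as genes of the same layer. Over all genes 14.7% were over 2-fold lower in suspension and 15.6% over 2-fold higher on re-adhesion. Between re-adherent and adherent cells 4.84% were over 2-fold higher. In suspension 9 were lower, 8 to 10 over the scalings, 4 of them over 2-fold, 4 to 7 over the scalings, with a median log2 difference of -0.89, and on re-adhesion all 11 were higher, 8 of them over 2-fold, with a median of 2.18, although Msln turned lower without scaling, with spike-in scaling and with the authors' values. Between re-adherent and adherent cells 10 of the 11 were higher, 9 with spike-in scaling, 5 of them over 2-fold, 3 with spike-in scaling, with a median of 0.98, beside 0.12 for Wt1 and -0.37 for Tbx18. The keratin genes Krt19, with 969, 215 and 1623 units, and Krt18, with 935, 341 and 2392, ended above their adherent signals, and so did the uroplakin gene Upk1b, with 216, 128 and 518. Sema3d was not well above background in suspension, at least 11.3-fold below the adherent array as scaled here. Its log2 difference was -1.44 at the least over the scalings. Aldh1a2, which makes retinoic acid in the epicardium, ended lower, with 10618, 4194 and 5238 units.

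**Figure D4:**
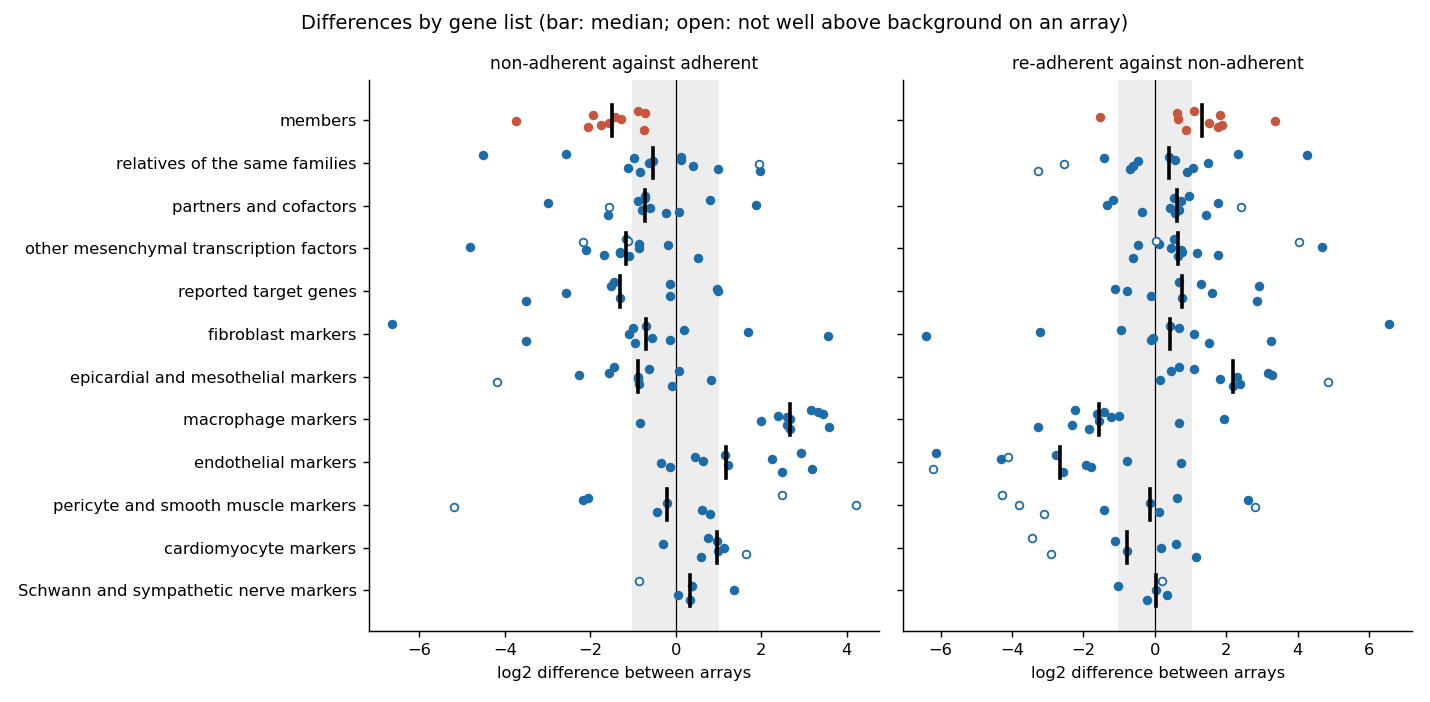
Log2 differences of the measured genes of each list in the first step (left) and the second (right), with 1 point per gene, a bar at the list's median, open points for genes not well above background on an array of that comparison, and a grey band for differences under 2-fold. The 10 factors lie left of 0 in the left panel, where most macrophage and endothelial markers lie right of 0, and most points of these lists change sides in the right panel.

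Directions of the 10 genes in the 2 steps were the same under every scaling tried. Over 10 other settings of background correction, scaling, filters and probe choice, Tbx18 ranged from -3.98 to -3.32 in the first step and from 2.92 to 3.37 in the second, and Meox1 from -1.66 to -1.23 and from -1.91 to -1.03. None of the 10 genes changed sign in either step under any of these settings. The sign did change for Tcf21, Wt1, Gata4 and Tbx20 between re-adherent and adherent cells.

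**Figure D5:**
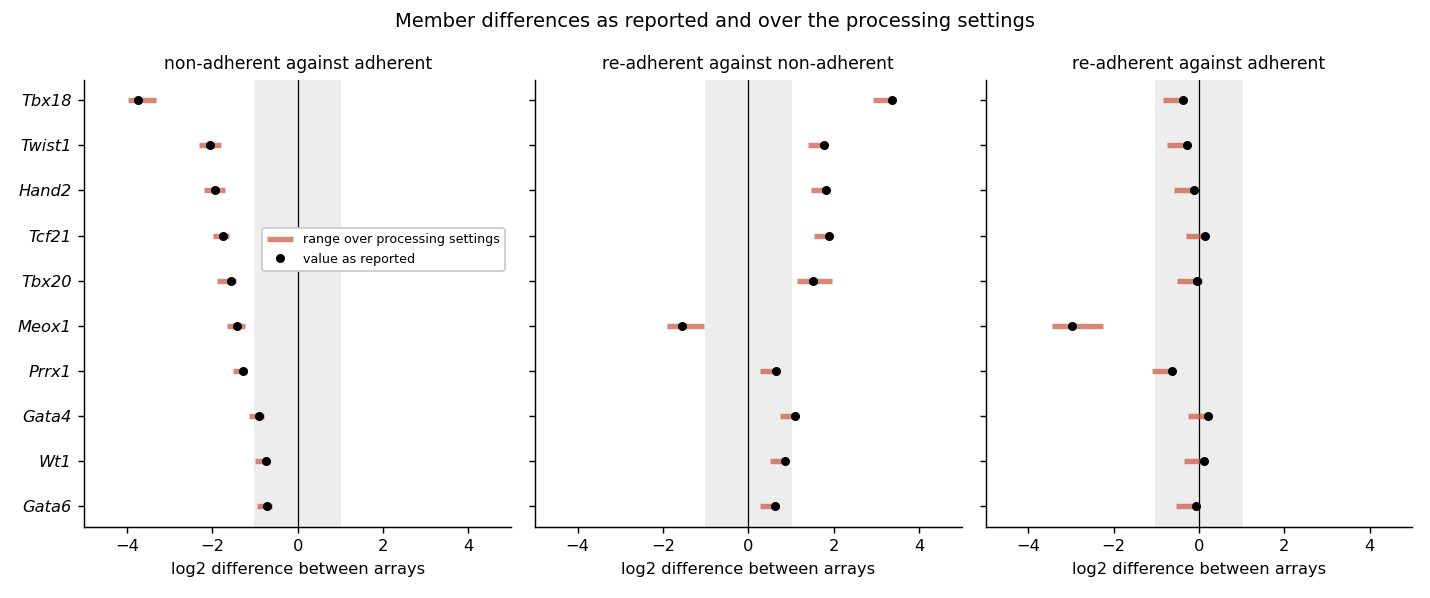
Log2 difference of each of the 10 genes as reported (points) and its range over the other processing settings (bars) in the 3 comparisons, with a grey band for differences under 2-fold. The bars stay on 1 side of 0 in the first 2 panels, and in the third those of Tcf21, Wt1, Gata4 and Tbx20 reach across 0.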

How the data were processed

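Cy3-labelled cRNA was hybridised to 1-colour Agilent SurePrint G3 mouse arrays, 1 per state. The deposited scanner files hold, per the file headers, intensity values written by Agilent Feature Extraction 10.10.1.1: background-subtracted, detrended signal on a linear scale, spot errors and flags. The authors' value table holds intensity too and equalled that signal times 1.52, 1.52 and 1.62 per array. No normalization is named in the sources used here.

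Here, flagged spots (154, 180 and 175) were left out, the 75th percentile of the 59305 non-control spots on an array was subtracted from the log2 signal (pseudocount 0), and spots of a probe were averaged (Python 3.11.15, pandas 2.3.3, numpy 2.4.6). RefSeq accessions gave a symbol to 27235 of 55681 probes. A probe entered when the scanner called it well above background in 1 or more states (58.1%, 59.9% and 53.9% of spots were), and the brightest stood for its gene. For probes spotted 10 times the median SD between spots was 0.07, 0.08 and 0.06 in the 3 comparisons, and the median software error was 0.20. The number of arrays limits the precision. A bound written "at least" sets the dim side to the array's lowest signal called well above background, or to the probe's own signal where that is higher. Such a bound holds for the scaling used here and can be smaller in other settings.

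Named genes were the 10 factors, all relatives and partners, the 3 genes with the largest difference in each other list among those well above background on all arrays, and the 3 nearest to each factor; 1 gene that this rule names is not reported here. Postn, Ptprc, Itgam, Cx3cr1, Col1a2, Col3a1, Dcn, Pdgfra, Pdgfrb, Kdr, Nppa, Msln, Sema3d, Aldh1a2 and the markers not above background were added after their values were seen. The members and lists were chosen with earlier results of these data known. Alternatives were normexp (limma 3.58.1, offset 50) with quantile normalization, quantile normalization alone, no scaling, spike-in scaling over 10 E1A probes, the authors' values, 2 filters, a floor, probe means, spatial patches and other fold limits. The steps were tested on simulated data.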

Additional observations from a re-analysis of the deposited data

How the results depend on the processing

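No paired analysis was possible because there is just 1 array for a state, and for the same reason no array could be left out. The median of the 10 log2 differences in suspension was -1.74 with spike-in scaling. On re-adhesion it was 0.95 without scaling, 1.09 with spike-in scaling, 1.03 with the authors' values and 1.10 without spatial patches, which removed Twist1. Between re-adherent and adherent cells it was -0.36 without scaling and -0.56 with spike-in scaling. With a 4-fold limit 2 genes were lower in suspension, and on re-adhesion 1 was higher and 0 lower. Between re-adherent and adherent cells 2 genes were lower with a 1.5-fold limit, and also 2 with spike-in scaling.

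The median of all genes moved with the scaling: in suspension it was -0.07 as reported and -0.32 with spike-in scaling, on re-adhesion 0.08 and, without scaling, -0.28, and between re-adherent and adherent cells 0.06 and, with spike-in scaling, -0.40. The share of genes over 2-fold lower and higher on re-adhesion was 23.4% and 9.9% without scaling. Of the 30 single differences, 29 moved by more than their software error with spike-in scaling, 20 without scaling, 10 with the authors' values, 8 with normexp and 2 with probe means, and 0 with quantile normalization or with the other filters. Normexp was run on spot medians, a choice made after seeing the data. The scanner signal had no values at the upper limit, and all 10 genes were well above background on every array. Normexp moved Tbx18, Twist1, Hand2 and Meox1 by more than their error in at least 1 comparison.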
